A study of Mus musculus with 6 samples.

Results

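The genes of the MHC class II pathway were followed in the bone marrow of mice with HoxA9/Meis1-driven disease. The rule named 10 genes, the class II chain genes H2-Aa, H2-Ab1 and H2-Eb1, the peptide editor genes H2-DMa, H2-DMb1, H2-DMb2, H2-Oa and H2-Ob, the invariant chain gene Cd74 and the transcriptional coactivator gene Ciita. Members were kept where the array had a probe set assigned to exactly 1 gene symbol, and the brightest was used if there were several. This left 8 of the 10 genes, out of 19938 genes measured in the same way, and each of the 8 had 1 probe set. H2-DMb1 and H2-DMb2 dropped out because they share a probe set.

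The study asked how marrow gene expression differs between disease driven by wild-type HoxA9 and by an altered form, HoxA9AA. The sources used here do not state its substitutions. Donor LSK cells, the marrow fraction that holds stem and early progenitor cells, carried the CD45.2 surface marker and were transduced with Meis1 and with HoxA9wt-GFP or HoxA9AA-GFP. They were transplanted into lethally irradiated CD45.1 recipients, and RNA was taken from bone marrow cells when disease began. There were 3 HoxA9wt/Meis1 and 3 HoxA9AA/Meis1 samples, called biological replicates in the labels, with 1 array each. Each is taken here to be 1 mouse, and both groups carried the introduced Meis1. No unmodified marrow and no Meis1-only group was analysed here, and the sources used here state no strain, age or promoter. The labels name no sort before RNA extraction, so cells of the recipient may contribute. In RNA of unsorted marrow, fewer cells of a type and less RNA per cell cannot be told apart.

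MHC class II molecules are pairs of an alpha and a beta chain that carry peptides of endocytosed proteins to the surface, where CD4+ T cells recognise them. The invariant chain, encoded by Cd74, blocks the groove until lysosomal proteases degrade it, and H2-DM then exchanges its remnant for other peptides, a step that H2-O restrains. In marrow these genes are mainly those of dendritic cells, B cells and macrophages, and monocytes raise them after interferon gamma. Their promoters share an X box and a Y box, bound by RFX and NF-Y, on which Ciita acts as the coactivator.

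Promoter sequences are shown first because they let the members be compared by the site that class II genes share. Of the measured members, 5 had a window of 300 bases in the RefSeq promoter table (build GRCm38.p6, 250 bases before to 50 after the start). No such window was used for H2-Ab1, Cd74 and Ciita. In 4 of these 5, H2-Oa, H2-Ob, H2-Aa and H2-Eb1, the letters GCAAC, the core of the X box, stood 5′ of TGATTGG, the Y box with 2 flanking bases. The spacing was 26 bases in H2-Oa and H2-Aa, 25 in H2-Eb1 and 23 in H2-Ob. Both stretches are in capitals below, each sequence being read 5′ to 3′ on the strand of the gene.
H2-Oa (chr17:34092129-34092428, plus strand): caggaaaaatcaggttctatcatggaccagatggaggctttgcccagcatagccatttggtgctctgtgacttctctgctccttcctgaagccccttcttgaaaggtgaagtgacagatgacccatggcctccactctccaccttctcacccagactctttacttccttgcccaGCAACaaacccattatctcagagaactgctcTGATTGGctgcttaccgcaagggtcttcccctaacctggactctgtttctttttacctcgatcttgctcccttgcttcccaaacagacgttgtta
H2-Ob (chr17:34238655-34238954, plus strand): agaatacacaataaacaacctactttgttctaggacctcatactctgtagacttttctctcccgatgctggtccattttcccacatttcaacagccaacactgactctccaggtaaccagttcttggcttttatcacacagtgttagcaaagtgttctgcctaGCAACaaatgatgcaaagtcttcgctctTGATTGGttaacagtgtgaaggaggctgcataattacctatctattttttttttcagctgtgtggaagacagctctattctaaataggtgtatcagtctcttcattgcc
H2-Aa (chr17:34287774-34288073, minus strand): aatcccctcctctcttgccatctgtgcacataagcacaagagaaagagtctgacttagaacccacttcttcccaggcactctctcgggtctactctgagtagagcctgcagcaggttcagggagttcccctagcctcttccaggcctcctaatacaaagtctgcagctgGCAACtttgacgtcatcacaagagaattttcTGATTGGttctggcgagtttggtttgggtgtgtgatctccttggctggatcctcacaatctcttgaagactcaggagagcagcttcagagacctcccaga
H2-Eb1 (chr17:34305617-34305916, plus strand): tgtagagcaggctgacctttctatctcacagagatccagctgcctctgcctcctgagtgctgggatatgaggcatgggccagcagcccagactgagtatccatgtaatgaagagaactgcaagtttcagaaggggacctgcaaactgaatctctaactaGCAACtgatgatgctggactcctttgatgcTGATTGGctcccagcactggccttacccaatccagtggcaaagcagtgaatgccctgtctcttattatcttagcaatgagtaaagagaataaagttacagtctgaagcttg

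Over all 32851 promoter windows of 300 bases, GCAAC occurred on either strand in 35.2% and TGATTGG in 7.82%. The ordered pair, with 20 to 30 bases between and on 1 strand, occurred in 34 windows, or 0.103%. The letters were chosen with the members' promoters in view, so this share describes how rare the arrangement is and tests nothing. Neither window of H2-DMa held the pair. The 34 windows belonged to 31 genes, of which 25 were measured, 21 of them no members. H2-Eb2, the neighbour of H2-Eb1, was among the 21. The 25 genes had a median difference of −0.05 (log2, HoxA9AA minus HoxA9wt), against 0.01 over all genes, and 10 of them had a higher mean in HoxA9AA/Meis1 marrow, against 52.8% of all genes. Only 12 of the 25 had a mean above the background level defined below. No common direction was seen among the genes holding the pair, but genes near background can show little of one. The 4 members printed above had differences from −0.85 to 0.75.

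Expression values are log2, 1 unit being 2-fold. The 95th percentile of 1027 olfactory receptor genes, which marrow is not known to use, served as a background level and lay between 6.52 and 6.72 on the 6 arrays. Levels are compared between arrays for 1 gene and not between genes, because probe sets differ in brightness. Differences are HoxA9AA/Meis1 minus HoxA9wt/Meis1 with their SE from limma, and every p adjusted by Benjamini-Hochberg covers all 19938 genes. The array medians over all probe sets ran from 6.73 to 6.85.

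No difference between the groups was found that the class II genes shared. With limma 0 of the 8 members, and 0 of 19938 genes (0%), had an adjusted p under 0.05. None of the members had an unadjusted p under 0.05, a limit that 1344 of all genes, or 6.74%, passed. The groups did not overlap for 1 member, H2-Oa, against 11.4% of all genes (6.6% with HoxA9AA higher, as in H2-Oa, and 4.8% with HoxA9AA lower). The means of 5 members were higher in HoxA9AA/Meis1 marrow and those of 3 lower, and the median difference over the 8 was 0.15 (0.01 over all genes). Single mice stood out across several members: HoxA9wt replicate 2 was lowest for 6 of the 8, and HoxA9AA replicate 3 was highest for 4. For such counts per array, here and below, the share over all genes was not determined. Whether they belong to these genes or to the whole array was not tested.

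**Figure D1:**
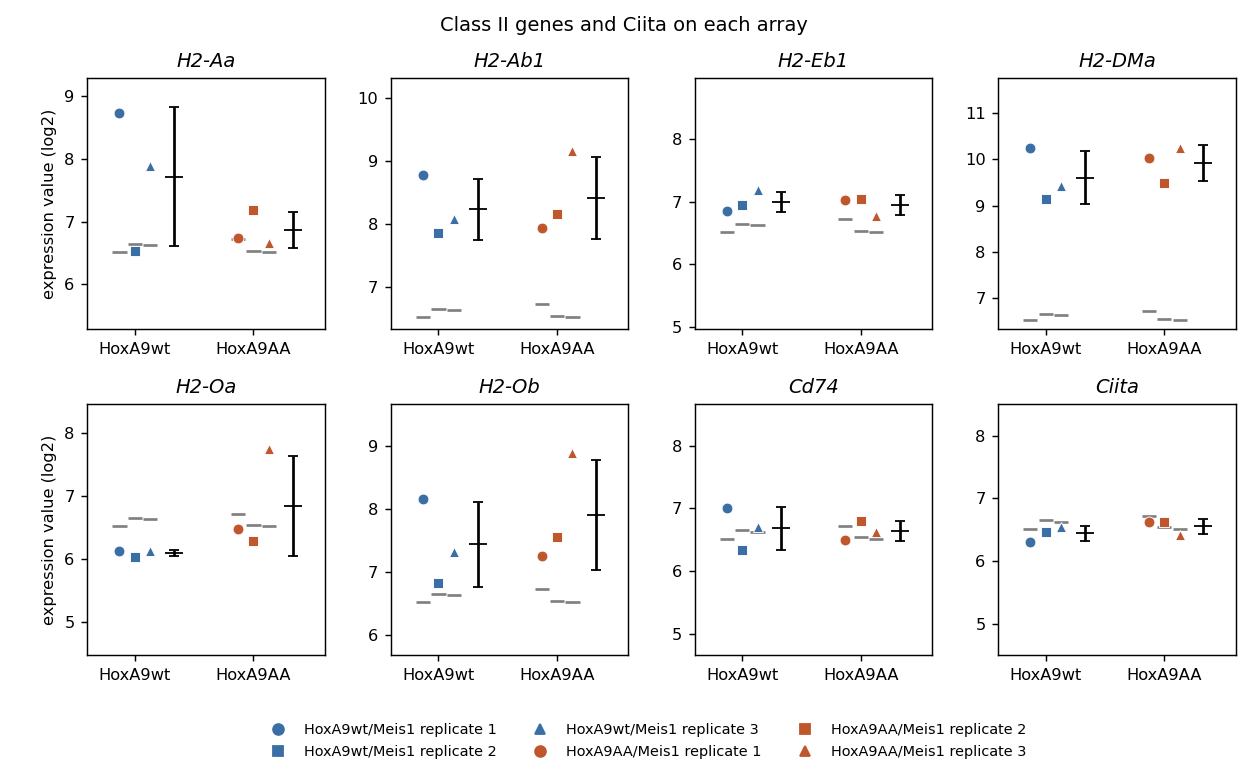
Expression values (log2, vertical axis, each panel on its own range) of the 8 measured members on the 6 arrays; coloured symbols are single mice, black bars the group mean ± SD (n = 3), and short grey lines the 95th percentile of olfactory receptor genes on that array. H2-Ab1, H2-Oa and H2-Ob are highest in HoxA9AA replicate 3 (9.16, 7.75 and 8.90), while H2-Aa is highest in HoxA9wt replicate 1 (8.73), and Cd74 and Ciita lie near the grey lines.

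H2-Aa encodes the alpha chain of I-A, the class II molecule found in all common mouse strains. It measured 8.73, 6.53 and 7.89 in HoxA9wt replicates 1, 2 and 3, and 6.74, 7.19 and 6.66 in HoxA9AA replicates 1, 2 and 3. The HoxA9wt mice thus ranged from below the background level in replicate 2 to well above it in replicate 1, and the HoxA9AA mice lay within that range. The difference was −0.85 ± 0.53 (95% interval −2.11 to 0.41; limma, adjusted p = 0.799). Without HoxA9wt replicate 2 the groups no longer overlapped, and the difference was −1.45, with an unadjusted p of 0.0036 and an adjusted p of 0.998 (0.577 to 0.998 over all settings tried). Without HoxA9wt replicate 1 it was −0.35, with an unadjusted p of 0.449.

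H2-Ab1 encodes the beta chain that pairs with the product of H2-Aa. Its values were 8.78, 7.85 and 8.07 in the HoxA9wt mice and 7.93, 8.16 and 9.16 in the HoxA9AA mice. All 6 lay above background, and the highest mouse of each group stood apart from its other 2. The difference was 0.18 ± 0.38 (95% interval −0.72 to 1.09; limma, adjusted p = 0.967). Without HoxA9AA replicate 3 it was −0.19, and without HoxA9wt replicate 2 it was −0.008.

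The partner chains H2-Aa and H2-Ab1 parted in HoxA9AA replicate 3. There H2-Aa lay 1.06 below the HoxA9wt mean and H2-Ab1 lay 0.93 above its own. In HoxA9wt replicate 1, by contrast, H2-Aa lay 1.01 and H2-Ab1 0.55 above their means. The log2 ratio of H2-Ab1 to H2-Aa, relative to its HoxA9wt mean, was −0.47, 0.80 and −0.34 in the HoxA9wt mice. In the HoxA9AA mice it was 0.67, 0.45 and 1.98, so the groups overlapped through HoxA9wt replicate 2. A ratio within an array does not say which of the genes moved.

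H2-Eb1 encodes the beta chain of I-E, the other class II molecule of the mouse. It measured 6.86, 6.95 and 7.18 in the HoxA9wt mice and 7.02, 7.05 and 6.77 in the HoxA9AA mice. These values lay just above background on all 6 arrays and spanned only 0.41. The difference was −0.05 ± 0.13 (95% interval −0.35 to 0.25; limma, adjusted p = 0.974), and its sign turned without HoxA9wt replicate 3 (0.042) or HoxA9AA replicate 3 (0.038). H2-Ea, whose product is the alpha chain of I-E, measured 5.08 to 5.20 in the HoxA9wt and 5.20 to 5.25 in the HoxA9AA mice. The related gene H2-Eb2 measured 5.45 to 5.67 and 5.63 to 5.93. Neither gene was above background on any array. Class II genes are polymorphic, the H2 haplotypes of donors and recipients are not stated in the labels, and whether alleles bind the probes of H2-Aa, H2-Ab1, H2-Eb1 and H2-Ea equally was not tested.

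Cd74 encodes the invariant chain, which binds new class II molecules and, at the surface, acts as a receptor for the cytokine Mif. It measured 7.01, 6.33 and 6.70 in the HoxA9wt mice and 6.49, 6.80 and 6.62 in the HoxA9AA mice. Only 4 of the 6 values were above the background level, by at most 0.49, so the probe set gave little signal in either group. The difference was −0.04 ± 0.19 (95% interval −0.49 to 0.40; limma, adjusted p = 0.988), and leaving out HoxA9wt replicate 1 (0.12) or HoxA9AA replicate 1 (0.03) turned its sign. Of the genes for its ligands and receptor partners, Mif, Ddt, Cd44, Cxcr2 and Cxcr4, none had an unadjusted p under 0.05. Cd44, the signalling partner of Cd74, measured 10.68, 10.29 and 10.43 in the HoxA9wt mice and 9.08, 10.42 and 10.13 in the HoxA9AA mice.

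H2-DMa encodes the alpha chain of the peptide exchange factor H2-DM. It measured 10.24, 9.15 and 9.43 in the HoxA9wt mice and 10.02, 9.49 and 10.25 in the HoxA9AA mice. This member stood 2.50 or more above the background level on every array. Its difference was 0.31 ± 0.32 (95% interval −0.46 to 1.08; limma, adjusted p = 0.901), and HoxA9wt replicate 1 was as high as the highest HoxA9AA mice. Without HoxA9wt replicate 1 the groups did not overlap, and the difference was 0.63 (adjusted p = 0.971, 0.591 to 0.999 over all settings). Without HoxA9wt replicate 2 it was 0.085.

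The H2-O genes encode the inhibitor of H2-DM, known mainly from B cells and some dendritic cells. H2-Oa, its alpha chain, measured 6.12, 6.03 and 6.12 in the HoxA9wt mice and 6.47, 6.29 and 7.75 in the HoxA9AA mice. Every HoxA9AA mouse thus lay above every HoxA9wt mouse, but only HoxA9AA replicate 3 was above the background level. The difference was 0.75 ± 0.37 (95% interval −0.14 to 1.63; limma, adjusted p = 0.745). It was 0.29 without HoxA9AA replicate 3, with an unadjusted p of 0.0336 and an adjusted p of 0.807, and 1.02 without HoxA9AA replicate 2, with an unadjusted p of 0.0339 and an adjusted p of 0.302 (0.302 to 0.998 over all settings).

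H2-Ob, the beta chain of H2-O, measured 8.16, 6.83 and 7.32 in the HoxA9wt mice and 7.26, 7.56 and 8.90 in the HoxA9AA mice. All values were above background, and HoxA9AA replicate 3 was highest, as for H2-Oa. The groups overlapped, with a difference of 0.47 ± 0.51 (95% interval −0.74 to 1.68; limma, adjusted p = 0.906). It turned to −0.027 without HoxA9AA replicate 3. Among the HoxA9AA mice H2-Ob had an SD of 0.87, larger than that of 97.8% of all genes in this group, and H2-Oa one of 0.80, larger than that of 97.1%.

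Ciita, the coactivator without which class II genes are hardly transcribed, measured 6.31, 6.47 and 6.55 in the HoxA9wt mice and 6.63, 6.62 and 6.42 in the HoxA9AA mice. A single value, that of HoxA9AA replicate 2, lay above background. The 6 arrays spanned 0.32. The difference was 0.11 ± 0.11 (95% interval −0.14 to 0.37; limma, adjusted p = 0.889), and 0.047 without HoxA9wt replicate 1 to 0.182 without HoxA9AA replicate 3.

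**Figure D2:**
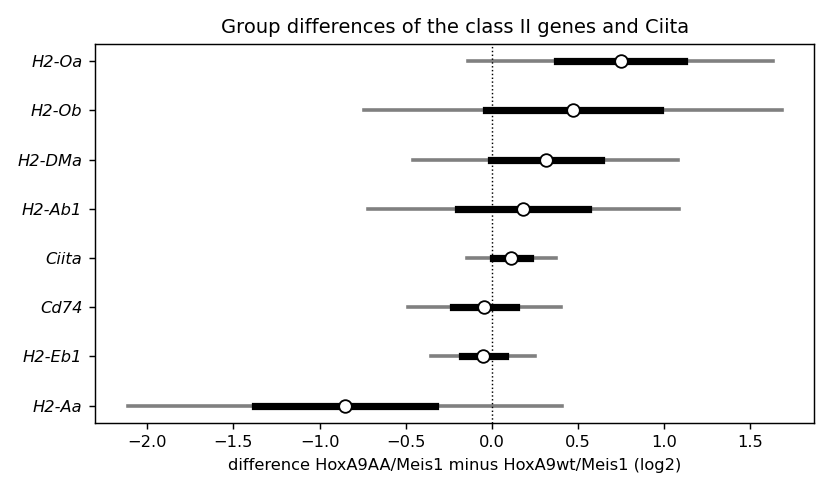
Difference HoxA9AA/Meis1 minus HoxA9wt/Meis1 (log2, horizontal axis) for the 8 members, ordered by size; circles are limma estimates, thick black lines ± SE and thin grey lines the 95% interval (3 mice per group). All 8 intervals include 0, and the widest, that of H2-Aa, runs from −2.11 to 0.41.

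No difference was found in the factors that act on class II promoters. Of the 7 listed, the RFX subunits Rfx5, Rfxap and Rfxank, the NF-Y subunits Nfya, Nfyb and Nfyc and the CREB factor Creb1, all 7 were measured and had means above background. None had an unadjusted p under 0.05, 5 had a higher mean in HoxA9AA/Meis1 marrow, and the median difference was 0.11. Nfyc, a histone-fold subunit of NF-Y, measured 8.29, 8.16 and 8.28 in the HoxA9wt mice and 8.31, 8.35 and 8.39 in the HoxA9AA mice. The groups did not overlap, though the nearest mice differed by 0.02. The difference was 0.11 ± 0.08 (limma, adjusted p = 0.849). Rfx5, the DNA-binding subunit of RFX, differed by 0.11, Rfxap by 0.11, Rfxank by 0.06, Nfya by 0.17, Nfyb by −0.09 and Creb1 by −0.01. For 5 of the 7 factors HoxA9AA replicate 3 was again the highest array. Of the lists described below, it was also highest for 9 of 16 class I presentation genes and 5 of 10 stem and progenitor markers. It was highest for 0 of 12 monocyte and 0 of 10 neutrophil markers.

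Regulators of Ciita went both ways. Of 19 listed, 18 were measured, 9 with a higher and 9 with a lower mean, and the median difference was −0.025. With limma 2 had an unadjusted p under 0.05, both higher in HoxA9AA/Meis1 (4.15% of all genes did so in that direction), and none an adjusted one. Irf1, the interferon-induced factor that binds an interferon-responsive Ciita promoter, measured 7.51, 6.96 and 7.33 in the HoxA9wt mice. In the HoxA9AA mice it measured 8.0, 7.43 and 8.24, so that only replicates 1 and 3 lay above the HoxA9wt range (difference 0.62 ± 0.24; limma, adjusted p = 0.731).

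Smarca4, the ATPase of the SWI/SNF chromatin remodeller, measured 9.59, 9.71 and 9.59 in the HoxA9wt mice and 9.82, 9.87 and 10.34 in the HoxA9AA mice (difference 0.38 ± 0.15; limma, adjusted p = 0.731). Ifngr1, a chain of the interferon gamma receptor, measured 12.11, 11.81 and 11.97 against 11.62, 11.79 and 11.77 (difference −0.24 ± 0.11, same adjusted p). Of the 18 regulators, 2 had groups apart with HoxA9AA higher, Smarca4 and Ezh2 (6.6% of all genes in that direction). Another 1, Ifngr1, had them apart with HoxA9AA lower (4.8% of all genes). For Ifngr1 and Ezh2 the nearest mice differed by 0.02. Ifngr2, the other receptor chain, overlapped between the groups, with a difference of −0.15.

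The proteases and trafficking proteins that load class II molecules mostly had lower values in HoxA9AA/Meis1 marrow, but no gene passed the adjusted test. All 15 measured genes of the list (17 were listed, including alternative names) were above background. Their median difference was −0.35, 11 had a lower mean, and 3 had an unadjusted p under 0.05 towards lower values (2.59% of all genes did). Another 1 had it towards higher values. Ctsl, a lysosomal protease that cuts the invariant chain in thymic epithelium and other cells, measured 10.05, 9.72 and 10.27 in the HoxA9wt mice and 8.39, 9.33 and 7.95 in the HoxA9AA mice. The groups did not overlap, and the difference was −1.46 ± 0.35 (95% interval −2.30 to −0.61; limma, adjusted p = 0.731).

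Marchf1, the ubiquitin ligase that takes class II molecules off the surface, measured 8.81, 8.45 and 8.86 in the HoxA9wt mice and 7.91, 8.50 and 7.61 in the HoxA9AA mice. Ctss, the protease that trims the invariant chain in antigen-presenting cells, measured 12.52, 12.32 and 12.41 against 10.62, 12.24 and 11.35. Ctsl, Ctss and Marchf1 were low in HoxA9AA replicates 1 and 3 and nearer to the HoxA9wt mice in replicate 2. Marchf1 differed by −0.70 ± 0.24 and Ctss by −1.01 ± 0.38 (limma, adjusted p = 0.731 for each).

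Ifi30, the lysosomal thiol reductase of antigen processing, had the same pattern, with 11.10, 11.56 and 11.52 in the HoxA9wt mice and 10.18, 11.40 and 9.28 in the HoxA9AA mice. It was named after its values were seen, as were Lamp1, Lgmn, Cd63, Marchf8, Cd9 and Ap1m1. Lamp1 and Lgmn, a lysosomal membrane protein and an endopeptidase, differed by −0.26 and −0.99. The tetraspanin gene Cd63, of late endosomes and granules, was the 1 gene of the list with an unadjusted p under 0.05 towards higher values, with 9.65, 9.28 and 8.13 in the HoxA9wt mice and 10.44, 9.56 and 10.79 in the HoxA9AA mice (difference 1.24 ± 0.47; limma, adjusted p = 0.731). The other genes with a higher mean were Marchf8, another ubiquitin ligase of class II traffic (7.52, 7.50 and 7.17 against 7.80, 7.55 and 7.74, with no overlap), Cd9 (difference 0.63) and Ap1m1 (0.21). HoxA9AA replicate 3 had the highest H2-Ab1, H2-Ob and H2-DMa values of the 6 mice, H2-DMa at 10.25 against 10.24 in HoxA9wt replicate 1. It also had the lowest Ctsl, Ifi30 and Marchf1 values. The lists did not part throughout in this way. H2-Eb1 too was lowest in that mouse (6.77), while Ctss (10.62) and Lgmn (7.31) were lowest in HoxA9AA replicate 1.

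The mean of the monocyte markers was low in the same mice as Ctsl, Ctss, Marchf1 and Ifi30, but not all processing genes or markers shared this course. Cst3, for example, measured 10.14, 11.33 and 11.36 in HoxA9AA replicates 1, 2 and 3, with a HoxA9wt mean of 11.34. Ctsd was lowest in HoxA9AA replicate 2, at 10.87. All 12 measured monocyte markers (of 14 listed) had a lower mean in HoxA9AA/Meis1 marrow. Their mean level was 9.29 to 9.71 in the HoxA9wt mice, and 8.24, 9.47 and 8.25 in HoxA9AA replicates 1, 2 and 3. Some markers were not low in these mice. Treml4 was highest of the 6 arrays in HoxA9AA replicate 1, at 8.01. In HoxA9AA replicate 3, Cd300e measured 7.42, above its HoxA9wt mean of 7.29, and F13a1 measured 11.95, within its HoxA9wt range. The part of monocyte content in the values of Ctsl, Ctss, Marchf1 and Ifi30 was not tested. Among the HoxA9AA mice, H2-Aa and Cd74 were likewise highest in replicate 2. H2-Ab1, H2-DMa, H2-Oa and H2-Ob were highest in replicate 3, where the mean of the monocyte markers was low. The part of monocyte content in these values was not tested either.

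**Figure D3:**
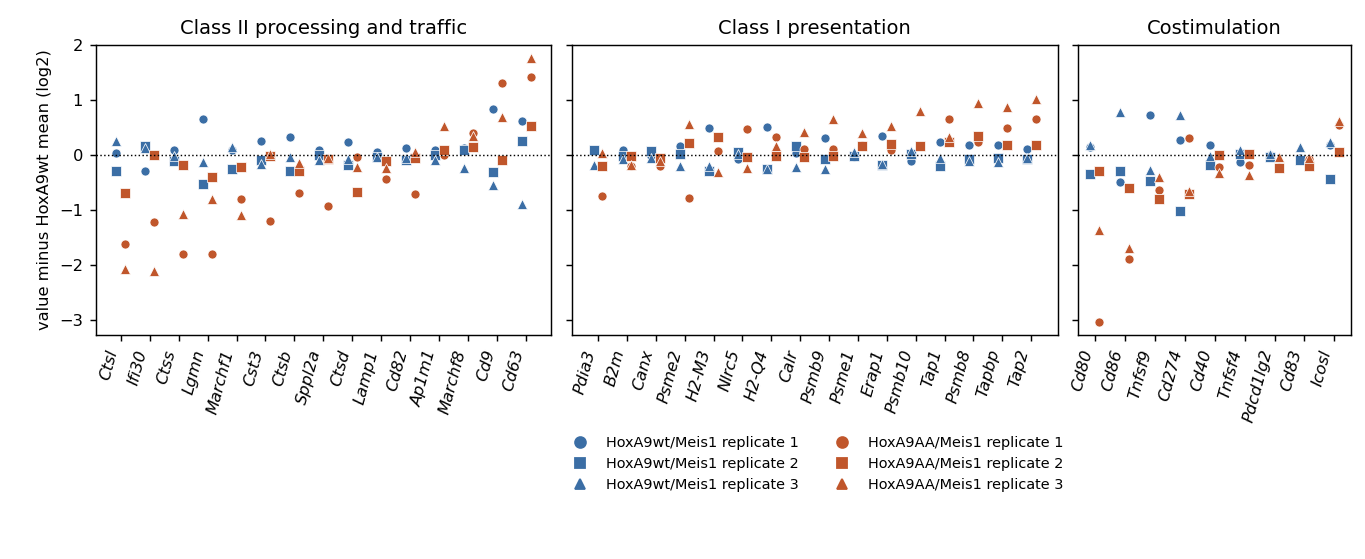
Value minus the HoxA9wt mean (log2, vertical axis) per array for the measured genes of class II processing and traffic, class I presentation and costimulation, each list ordered by its group difference; each symbol is 1 mouse. HoxA9AA replicates 1 and 3 lie low for Ctsl, Ctss and Cd86, and HoxA9AA replicate 3 lies high for Tap2, Tapbp and Psmb8.

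Class I presentation genes, which supply peptides of the cytosol to CD8+ T cells, had mostly higher values in HoxA9AA/Meis1 marrow. Of 20 listed genes 16 were measured, 13 with a higher mean, and the median difference was 0.21. With limma 5 had an unadjusted p under 0.05 towards higher values (4.15% of all genes) and 0 towards lower, and none passed the adjusted test. The groups did not overlap for 5 genes, all higher in HoxA9AA/Meis1, against 6.6% of all genes in that direction.

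Tap2, a chain of the peptide transporter of the endoplasmic reticulum, measured 7.59, 7.40 and 7.43 in the HoxA9wt mice and 8.14, 7.65 and 8.49 in the HoxA9AA mice (difference 0.62 ± 0.21; limma, adjusted p = 0.731). Tapbp, which tethers class I molecules to that transporter, measured 8.31, 8.08 and 8.0 against 8.63, 8.32 and 9.01. Psmb8, a catalytic subunit of the immunoproteasome, measured 9.98, 9.73 and 9.70 against 10.05, 10.15 and 10.76. In these 3 genes the groups did not overlap, though for Tapbp the nearest mice differed by 0.01. B2m, the light chain of class I molecules, measured 12.53 to 12.68 and 12.39 to 12.57, a difference of −0.14.

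Several of these genes lie among the class II genes on chromosome 17. In the gene order of the RefSeq table the stretch from H2-Oa to H2-Eb2 held 15 genes, of which 12 were measured, 6 of them members. The stretch was chosen with the values known and is described without a test. HoxA9AA replicate 3 lay above the HoxA9wt mean for 10 of the 12 genes, the exceptions being H2-Aa and H2-Eb1. HoxA9AA replicate 1 did so for 9 and replicate 2 for 7. Brd2, a gene of the stretch for a bromodomain protein that reads acetylated histones, measured 10.22, 10.22 and 10.40 in the HoxA9wt mice and 10.43, 10.19 and 10.58 in the HoxA9AA mice. In HoxA9AA replicate 3 the step from H2-Ab1 to the next measured gene, H2-Aa, went from 0.93 above to 1.06 below the HoxA9wt mean.

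**Figure D4:**
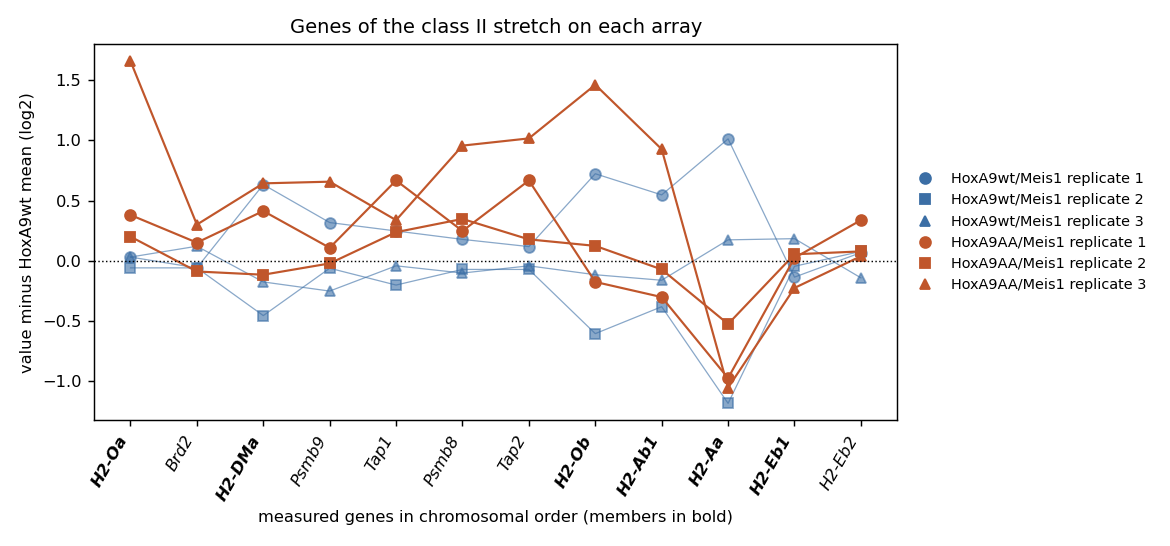
Value minus the HoxA9wt mean (log2, vertical axis) for the 12 measured genes from H2-Oa to H2-Eb2 in chromosomal order (horizontal axis, evenly spaced, not to distance); each line is 1 mouse, and members are in bold. HoxA9AA replicate 3 lies above 0 for 10 of the 12 genes and drops to −1.06 at H2-Aa, where the other HoxA9AA mice and HoxA9wt replicate 2 are also below 0.

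Genes listed under costimulation were mostly lower in mean. The list holds genes for signals that T cells need besides class II and peptide, and for the inhibitory ligands Cd274 and Pdcd1lg2. All 9 were measured, but only 4 had a mean above background, and Pdcd1lg2, Tnfsf4 and Cd83 were not above it on any array. A lower mean was found for 8, and the median difference was −0.18. Of these 8, 2 had an unadjusted p under 0.05 (limma, 2.59% of all genes in that direction), and none passed after adjustment. Cd86 measured 6.68, 6.89 and 7.96 in the HoxA9wt mice and 5.28, 6.58 and 5.48 in the HoxA9AA mice (difference −1.40 ± 0.45; limma, adjusted p = 0.731), and HoxA9AA replicates 1 and 3 were below background. Cd80 measured 9.42, 8.93 and 9.46 against 6.23, 8.98 and 7.91 (difference −1.56 ± 0.65; limma, adjusted p = 0.731), so that replicate 2 fell within the HoxA9wt range. Tnfsf9, the ligand of the receptor 4-1BB, was above background only in HoxA9wt replicate 1, at 6.70.

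Markers of the cells that usually carry class II differed in how far they were seen on these arrays. Of 12 conventional dendritic cell markers, all measured, 6 had a mean above background, and Zbtb46, Xcr1, Clec9a, Itgae and Snx22 were not above it on any array. Sirpa, a receptor that monocytes and macrophages also carry, measured 10.12 to 10.88. The list's mean level was 6.83 to 7.17 in the HoxA9wt and 6.66 to 7.15 in the HoxA9AA mice. HoxA9wt replicate 1 and HoxA9AA replicate 3, the mice with the highest H2-Ob and H2-Ab1, were also those with the highest mean levels of this list, at 7.17 and 7.15. The single markers did not all follow this mean. HoxA9AA replicate 3 was highest for only 2 of the 12, Flt3 (10.85), which is also on the stem and progenitor list, and Itgax (7.71). HoxA9wt replicate 1 was highest for 3 and HoxA9AA replicate 2 for 4. Of the 8 plasmacytoid markers measured (10 listed), 5 were above background. Their mean level was 7.09 to 7.13 and 7.09 to 7.17, and Tcf4 had the smallest p (difference 0.38 ± 0.14; limma, adjusted p = 0.731).

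Of 13 measured B cell markers (14 listed) 5 had a mean above background, and Cd79a, Ms4a1, Ebf1, Cd22, Blnk, Fcmr and Fcer2a were not above it on any array. All 13 had a higher mean in HoxA9AA/Meis1 marrow, with mean levels of 6.35 to 6.43 in the HoxA9wt and 6.46 to 6.66 in the HoxA9AA mice. Vpreb3, a gene of B cell precursors, had the smallest p of the list, with 6.67, 6.78 and 6.74 in the HoxA9wt and 7.60, 7.16 and 7.20 in the HoxA9AA mice (difference 0.59 ± 0.14; limma, adjusted p = 0.731). Of the 13 markers 7 were highest in HoxA9AA replicate 1 and 3 in HoxA9AA replicate 3, the mouse with the highest H2-Oa and H2-Ob. The part of dendritic or B cells in the class II values was not tested.

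Among the 13 macrophage markers, all measured, 11 had a mean above background. Their mean level was 7.37 to 7.90 in the HoxA9wt and 7.10 to 7.59 in the HoxA9AA mice, with the highest value in HoxA9wt replicate 1, the mouse highest for H2-Aa and Cd74 and for 6 of the 13 markers. Mertk, a receptor for apoptotic cells, had the smallest p, with 10.16, 9.51 and 9.72 in the HoxA9wt and 6.14, 8.93 and 6.64 in the HoxA9AA mice (difference −2.56 ± 0.69; limma, adjusted p = 0.731, and −3.41 with an adjusted p of 0.0319 without HoxA9AA replicate 2). Vcam1, an adhesion molecule of marrow macrophages and stroma, went the other way, with 8.85, 8.48 and 8.56 against 11.35, 9.12 and 9.25. In both genes the groups did not overlap. The part of macrophages in the class II values was not tested.

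Mean levels of the remaining lists also varied between mice. T and NK cell markers (10 of 12 measured) stood at 6.26 to 6.68 and 6.47 to 6.81. Neutrophil markers (10 of 10) stood at 7.36 to 10.36 and 8.79 to 10.69, with the lowest value in HoxA9wt replicate 3. Stem and progenitor markers (10 of 10) stood at 7.50 to 7.96 and 7.80 to 8.64, with HoxA9AA replicate 3 highest and HoxA9wt replicate 2, the mouse lowest for 6 members, lowest.

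**Figure D5:**
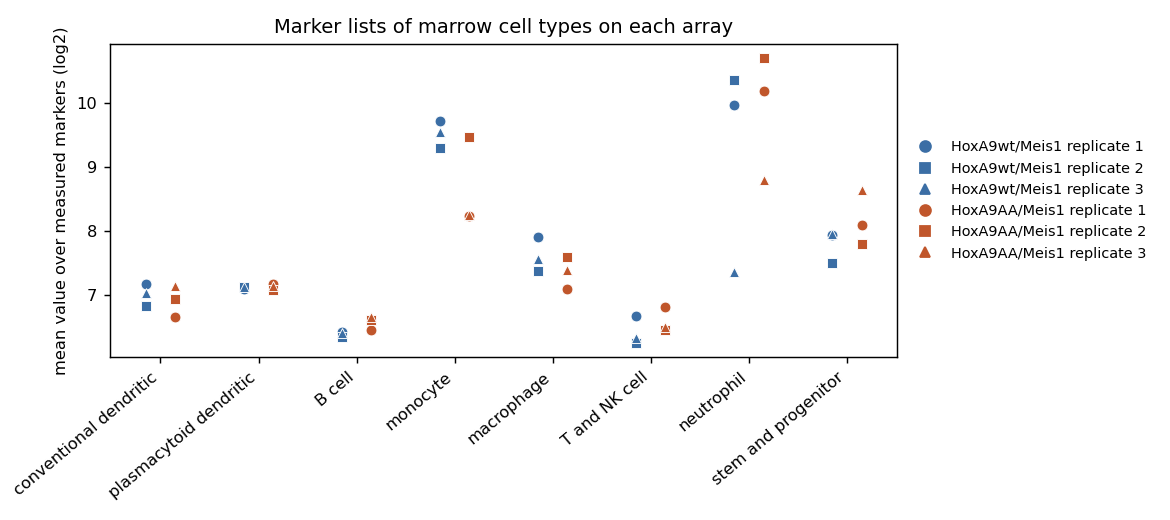
Mean value over the measured markers of 8 cell types (log2, vertical axis) per array; each symbol is 1 mouse. Monocyte markers lie lowest in HoxA9AA replicates 1 and 3 (8.24 and 8.25), the conventional dendritic list is highest in HoxA9wt replicate 1 (7.17) and HoxA9AA replicate 3 (7.15), and levels are not comparable between lists.

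Genes with the most similar course over the 6 mice were sought for the mean profile of the 6 members above background, which stood, relative to each gene's mean, at 0.52, −0.51 and −0.015 in the HoxA9wt and −0.20, −0.07 and 0.28 in the HoxA9AA mice. Likeness was the mean absolute distance per array between centred values, among 6953 eligible genes. The nearest were the stress-induced sestrin gene Sesn1 (0.09), Lsm10 of the U7 snRNP (0.09), the ETS factor gene Elk3 (0.10), Neurl3 (0.10), Stk40 (0.10) and Lrp12 (0.10). Sesn1, for example, measured 8.88, 7.79 and 8.31 in the HoxA9wt mice and 8.23, 8.60 and 8.70 in the HoxA9AA mice. That it shares the highest and lowest array of the profile follows from how it was chosen and is no separate result. The profile also averages members that parted, such as H2-Aa and H2-Ab1 in HoxA9AA replicate 3.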

How the data were processed

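Bone marrow RNA of 6 samples, each taken to be 1 mouse, was hybridised to 6 Affymetrix whole-transcript arrays. The authors deposited log2 values; per the submitters' processing notes these came from oligo and RMA, which corrects background, normalizes by quantiles and summarises probe sets. The sources used here give neither versions nor build. Of 35556 probe sets, 21789 had 1 symbol in the platform annotation, 1621 several (left out) and 12146 were unnamed; for 999 genes the brightest of several probe sets was used. Symbols of the 8 members matched the RefSeq table (GRCm38.p6) by Entrez identifier.

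The comparison used limma 3.58.1 under R 4.3.3 (lmFit, eBayes without trend, two-sided, no block, threshold 0.05), which was tested on simulated data first. Alternatives were a replicate block, omission of each array, dropping dim genes, averaging probe sets, normalizing again by quantiles, median centring and eBayes with trend and robust. The number of arrays limits the precision. Named were all members, up to 3 genes of each list with the smallest p, and all measured promoter factors and other class II genes. The 6 genes nearest in profile (SD over arrays of at least 0.2, no predicted genes) were named too. Further genes were named outside this rule with their values known. Among them were Ifi30, Lamp1, Lgmn, Cd63, Marchf8, Cd9, Ap1m1, Cst3, Ctsd, B2m, Ezh2, Ifngr2 and Brd2. The members and lists were chosen with earlier results of these data known. Figures used matplotlib 3.10.9.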

Additional observations from a re-analysis of the deposited data

How the results depend on the processing

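No member passed the adjusted threshold under any of the 12 alternatives, and 86 of 93 member differences kept their direction. Several alternatives could not turn a difference, so this count does not measure stability. The replicate block leaves every difference as it was, because the design is balanced. Averaging probe sets does so too, because each member has 1. Dropping dim genes and eBayes with trend and robust also leave the differences unchanged. The 7 that turned all came from fits without 1 array. Cd74 turned without HoxA9wt replicate 1 (0.122) or HoxA9AA replicate 1 (0.03), and H2-Ab1 without HoxA9wt replicate 2 (−0.008) or HoxA9AA replicate 3 (−0.188). H2-Eb1 turned without HoxA9wt replicate 3 (0.042) or HoxA9AA replicate 3 (0.038). H2-Ob, with a difference of 0.47 on all 6 arrays, turned without HoxA9AA replicate 3 (−0.027). Over the fits without 1 array the differences ran from −0.218 to 0.122 for Cd74, −0.188 to 0.457 for H2-Ab1, −0.118 to 0.042 for H2-Eb1 and −0.027 to 0.832 for H2-Ob. They gave 0 to 48 called genes over all genes (48 without HoxA9AA replicate 2, none of them a member but 3 of them listed markers, Clec4a3, Mertk and Erg, and 1 without HoxA9wt replicate 3), a median member difference of 0.006 to 0.289, 1 to 2 members whose groups did not overlap, and 0 to 1 with an unadjusted p under 0.05. With dim genes left out, 0 members had groups apart, because H2-Oa was not among the 10646 genes kept. With the replicate block, 0 genes were called. The median member difference was again 0.148, which a block cannot change in this balanced design. Deviations of same-numbered mice correlated at −0.208, −0.103 and −0.013 across genes. With 3 mice per group such deviations are bound to one another, so they cannot show whether mice were handled in pairs. The labels state no block. The remaining settings with all 6 arrays called 0 genes. H2-Oa, Cd74 and Ciita lay at or near background, where the array limits what can be seen.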
